A study of Mus musculus with 2 samples.

Results

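Mitosis and spindle genes were followed in prostaspheres, small spheres that mouse prostate epithelial cells form in Matrigel, with and without the transcription factor Sox9. The 38 genes were chosen by name, as genes with known roles in G2 and mitosis, but with earlier results of these data known. Each was read from the brightest probe that carried its name. All 38 were among the 27827 gene names of the array, and 34 of them were among the 15120 genes bright enough to test. Aurkb, Ttk, Cenpa and Hmmr were too dim. Epithelial cells came from urogenital sinus taken 16 days post conception, the embryonic tissue from which the prostate buds, per the labels, whereas the methods of the study describe spheres from adult tissue. Spheres grew for 6 days in Matrigel with dihydrotestosterone and then for 6 days with 5 µM tamoxifen or vehicle. In ERCre+/+ Sox9flox/flox (ER-Sox9flox/flox) cells, tamoxifen releases Cre and deletes Sox9. The methods of the study name the line as Rosa26ERCre, so Cre is driven from a locus active in most cell types and not from an epithelial promoter. The genetic background of all RNAs is given as C57/Bl6J.

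The 4 RNAs were hybridised on 2 two-colour arrays, so each comparison was a single array. In the genotype comparison, C57/Bl6J wild type spheres given tamoxifen (red dye, Cy5) were set against floxed spheres given tamoxifen, labelled Sox9 null (green dye, Cy3). The treatment comparison set floxed spheres given vehicle (Cy5) against floxed spheres given tamoxifen (Cy3). Every log2 ratio below is Cy5 over Cy3, that is Sox9-expressing over Sox9-deleted RNA, and a positive value means a higher signal where Sox9 was kept. The 2 deleted RNAs were separate samples, so the arrays shared no RNA. No label says whether spheres of several animals were pooled, or that the RNAs came from separate animals. The limma p-values rest on the spread between the 2 arrays, drawn towards that of all probes, and not on a spread between animals. The arrays hold different comparisons, so their spread is not that of replicates of 1 comparison. Both arrays lay on 1 slide with no dye swap, so dye and Sox9 state cannot be told apart. The labels are not uniform: one field names the Cy5 RNAs "SOX9" and the Cy3 RNAs "Ctrl", and the genotype field calls the vehicle-treated RNA Sox9 null as well. Titles and treatments set the direction here, and the Sox9 signal went with them: on its brightest probe the log2 ratio was 2.69 on the genotype and 2.37 on the treatment array. The second Sox9 probe was also higher (1.18 and 1.27), whereas the dimmest of the 3 was lower (-0.997 and -1.22). Krt5 and Krt14, keratins of basal epithelial cells, were higher on both arrays, at 2.13 and 1.91 for Krt5 and 2.07 and 1.86 for Krt14.

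Cells enter mitosis when cyclin B binds and activates Cdk1. Aurora and Polo-like kinases then build the spindle, kinesins move chromosomes and microtubules along it, and kinetochores tie chromosomes to it. The spindle checkpoint holds back the anaphase-promoting complex (APC/C) until every chromosome is attached, after which Cdc20 and Ube2c drive the destruction of cyclins. Most of these genes are transcribed late in the cell cycle and are nearly silent in cells that do not divide, so their summed RNA is widely read as a sign of cycling cells. Their promoters often hold a cell-cycle homology region (CHR, TTTGAA or TTTAAA), which MuvB complexes bind, together with CCAAT boxes, which NF-Y binds.

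Promoters are shown for the 6 members with the highest mean ratios whose window held both motifs, and for Ccnf and Spc25, which hold both as well and were near 0 in the genotype comparison. Each window runs from 120 bases before the transcription start to 30 bases from it onward, so that base 121 is the first transcribed base. Sequences are from RefSeq (GRCm38.p6), 5′ to 3′ along the gene, with CHR and CCAAT matches on either strand in capitals.
Cdc20, chr4:118437314-118437463, minus strand: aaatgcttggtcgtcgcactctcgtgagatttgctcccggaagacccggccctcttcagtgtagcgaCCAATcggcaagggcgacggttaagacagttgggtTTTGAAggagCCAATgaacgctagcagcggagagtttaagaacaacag
Ccnb2, chr9:70421525-70421674, minus strand: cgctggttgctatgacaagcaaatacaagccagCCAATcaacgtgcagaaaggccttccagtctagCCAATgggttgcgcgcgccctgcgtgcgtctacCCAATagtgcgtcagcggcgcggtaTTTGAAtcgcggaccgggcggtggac
Cenpe, chr3:135212443-135212592, plus strand: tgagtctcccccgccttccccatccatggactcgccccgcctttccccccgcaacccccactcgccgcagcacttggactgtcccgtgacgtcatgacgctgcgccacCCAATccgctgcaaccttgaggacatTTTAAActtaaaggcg
Plk1, chr7:122159315-122159464, plus strand: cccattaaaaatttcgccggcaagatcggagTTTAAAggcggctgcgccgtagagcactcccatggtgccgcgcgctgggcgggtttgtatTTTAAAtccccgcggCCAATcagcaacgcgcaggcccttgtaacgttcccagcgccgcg
Ccnb1, chr13:100786457-100786606, minus strand: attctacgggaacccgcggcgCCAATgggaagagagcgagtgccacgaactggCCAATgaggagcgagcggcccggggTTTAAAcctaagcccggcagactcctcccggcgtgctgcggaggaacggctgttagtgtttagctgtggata
Cenpf, chr1:189688057-189688206, minus strand: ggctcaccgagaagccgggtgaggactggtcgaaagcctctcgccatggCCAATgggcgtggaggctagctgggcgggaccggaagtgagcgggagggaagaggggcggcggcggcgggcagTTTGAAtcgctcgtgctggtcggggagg
Ccnf, chr17:24251380-24251529, minus strand: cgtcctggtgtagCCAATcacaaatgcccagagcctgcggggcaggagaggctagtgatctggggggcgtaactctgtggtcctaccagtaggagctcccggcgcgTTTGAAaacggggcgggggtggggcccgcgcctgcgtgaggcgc
Spc25, chr2:69206184-69206333, minus strand: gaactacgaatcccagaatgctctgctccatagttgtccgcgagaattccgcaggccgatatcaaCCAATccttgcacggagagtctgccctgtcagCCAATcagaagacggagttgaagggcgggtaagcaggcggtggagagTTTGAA
Promoters of 34 of the 38 members were matched by symbol (Aurkb, Ccna2, Kif20a and Tpx2 were not), and over the full 300 bases from 250 before the start to 50 after it, 28 of these 34 held a CHR on either strand (82.4%). The same letters occurred in 27.8% of the promoters of all 27025 genes in the table. CCAAT was present in 27 of the 34 (79.4%), against 37.9% of all genes, and both motifs in 24 (70.6%), against 10.9%. A CHR that began within 60 bases before or 30 bases after the start was found in 22 members (64.7%) and in 8.17% of all genes. For comparison, 56.1% of 66 other mitotic genes and 24.3% of 37 DNA replication genes held a CHR. Mad2l1, Nuf2 and Nusap1 held neither motif in this window, and their ratios in the treatment comparison ran from 0.40 for Mad2l1 to 1.07 for Nuf2. These matches describe sequence only.

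Nearly all mitosis and spindle genes had higher signal where Sox9 was kept. Of the 34 tested, 32 were higher on both arrays, none was lower on both, and Spc25 and Bub1 had ratios of opposite sign. Among all 15120 genes tested, 33.9% were higher on both arrays. The members were chosen with earlier results of these data known, so setting these shares side by side is not a test. The members' median log2 ratio was 0.19 in the genotype comparison (1.14-fold) and 0.88 in the treatment comparison (1.84-fold), whereas the medians of all genes were -0.01 and 0.01. Lower signal in the deleted spheres can come from fewer cells in mitosis or from less RNA in each, which cannot be told apart in RNA of whole spheres. Within the treatment comparison, loss of Sox9 went with tamoxifen, and within the genotype comparison with the floxed and Cre alleles. Neither can be told apart from Sox9 state on its array.

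**Figure D1:**
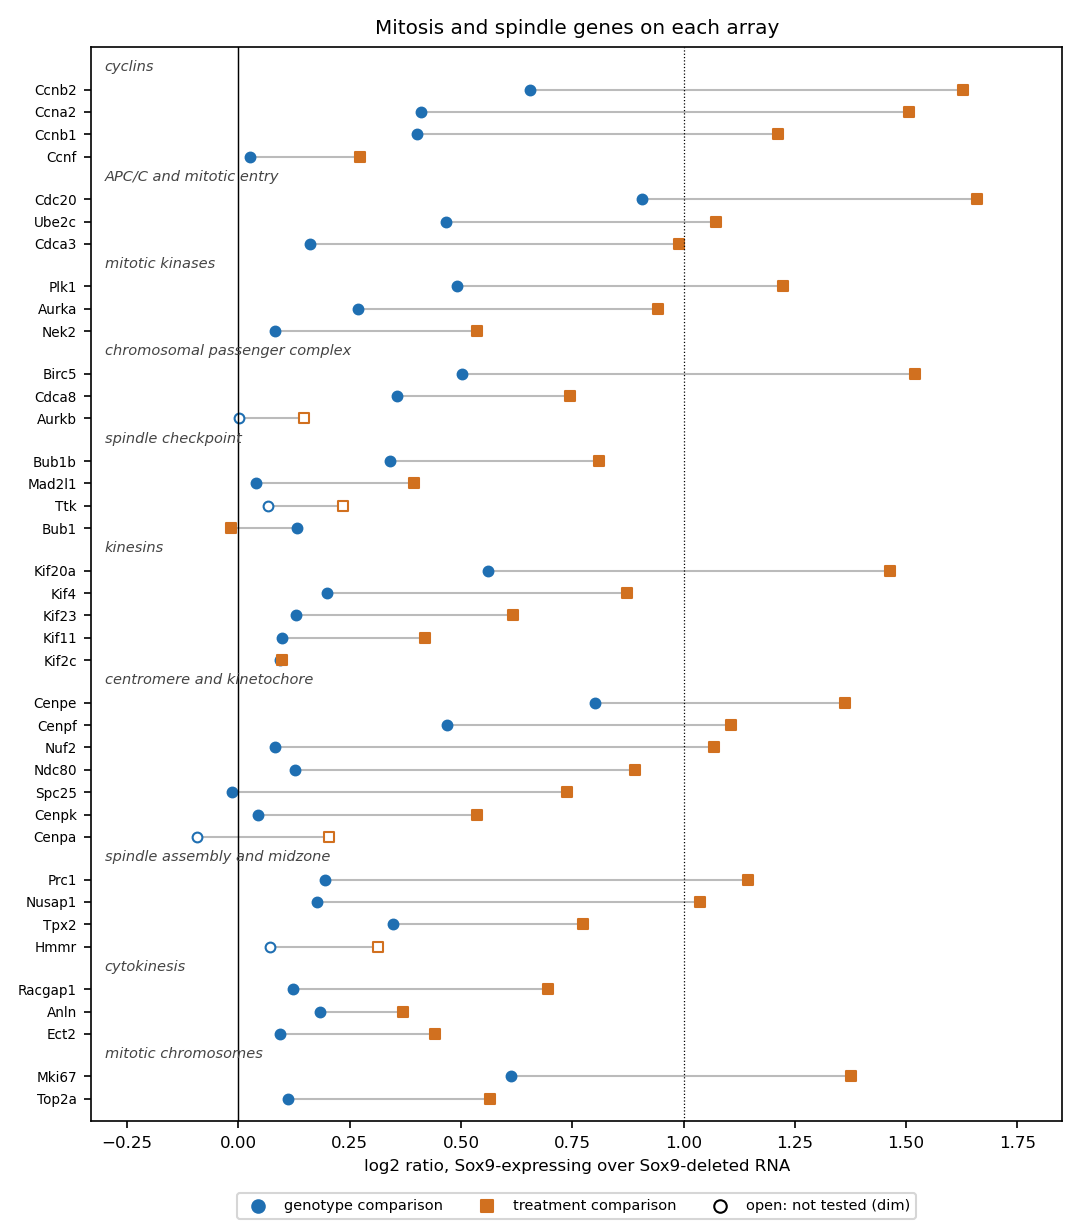
Log2 ratio of Sox9-expressing over Sox9-deleted RNA (x axis) for each of the 38 genes (y axis, by role) in the genotype (circles) and treatment comparison (squares), 1 array each; open symbols were too dim to test, and the dotted line marks a 2-fold ratio. All but Bub1 lay further right in the treatment comparison, where 14 genes passed 2-fold.

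No member passed a limma adjusted p of 0.05 over both arrays (n = 2), and adjusted p ranged from 0.132 to 0.740. Across all genes 0.0132% did, which is 2 genes. At an unadjusted limma p under 0.05, 17 of the 34 members were higher and none was lower, beside 10.5% of all genes higher and 9.06% lower. In the treatment comparison 14 members were at least 2-fold higher, a size that 1.73% of all genes reached. In the genotype comparison none was, against 0.595% of all genes. The test had 1 residual degree of freedom beside 2.80 prior ones taken from all probes. Its smallest adjusted p among the members belonged to Cenpe.

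The mitotic cyclins were among the members with the highest ratios. Ccnb2, a B-type cyclin that activates Cdk1, was measured at chr9:70255671-70255730 (mm9, where the array was annotated). Its net intensity, the spot's mean minus its local background, was 1145 in wild type and 347 in deleted RNA on the first array, and 1956 in vehicle-treated and 301 in deleted RNA on the second. These intensities precede dye correction, so ratios are given after it. The log2 ratio of Ccnb2 was 0.66 in the genotype and 1.63 in the treatment comparison. Their mean was 1.14 ± 0.26 (moderated SE, n = 2), with a limma adjusted p of 0.187. The moderated SE of limma draws the spread towards that of all probes, whereas the SD of these 2 ratios was 0.69. Both Cy5 RNAs were above both Cy3 RNAs. Ccna2, cyclin A2, which acts in S phase and early mitosis, read 345 and 115 on the first array and 790 and 119 on the second, with log2 ratios of 0.41 and 1.51 (limma adjusted p = 0.242). Ccnb1, the main partner of Cdk1 at mitotic entry, gave 0.40 and 1.21 on its brightest probe (limma adjusted p = 0.219), while 2 dimmer probes gave 0.15 and 0.07 in the genotype and 0.57 and 0.65 in the treatment comparison. Ccnf, the F-box protein cyclin F, stood apart from the other 3 at 0.03 and 0.27, and ranked 2507 of 15120 genes in the treatment comparison.

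Genes of the APC/C and mitotic entry were higher on both arrays. Cdc20, the activator of the APC/C (chr4:118105536-118105595, mm9), had the highest mean of all members and was ranked 45 of 15120 genes. Its net intensities were 1242 in wild type against 305 in deleted RNA, and 2069 in vehicle-treated against 312 in deleted RNA. The log2 ratios were 0.91 and 1.66 (SD 0.53), with a mean of 1.28 ± 0.21 (moderated SE, n = 2) and a limma adjusted p of 0.138. Both deleted RNAs read almost alike, and the vehicle-treated RNA was the highest. Ube2c, the ubiquitin-conjugating enzyme of the APC/C, gave 0.47 and 1.07 (limma adjusted p = 0.185). Cdca3, an F-box-like protein that helps trigger mitotic entry, gave 0.16 and 0.99, and its dimmer probe 0.22 and 0.93.

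Among the mitotic kinases, Plk1 was highest, with net intensities of 329 and 98.6 on the first array and 582 and 108 on the second. Plk1, the Polo-like kinase of spindle assembly, had log2 ratios of 0.49 and 1.22 (limma adjusted p = 0.190). Aurka, the Aurora kinase of the spindle poles, gave 0.27 and 0.94 (limma adjusted p = 0.247), and Nek2, a kinase of centrosome separation, gave 0.08 and 0.54. Of the chromosomal passenger complex, Birc5 (survivin) gave 0.50 and 1.52, from net intensities of 1248 and 433 against 2244 and 379 (limma adjusted p = 0.216). Cdca8 (borealin), the brightest member, gave 0.36 and 0.74 (limma adjusted p = 0.185). A second, dimmer Cdca8 probe gave 0.13 and 0.33, and a further probe was too dim to test. The kinase of this complex, Aurkb, was not well above background in any of the 4 RNAs, and its probe read between 5.25 and 8.02 net.

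Of the 3 spindle checkpoint genes tested, 2 were higher on both arrays. Bub1b (BubR1), which inhibits Cdc20, was higher at 0.34 and 0.81 (limma adjusted p = 0.196). Mad2l1 (Mad2), which acts beside it, gave 0.04 and 0.40. For the checkpoint kinase Bub1 the brightest probe gave 0.13 and -0.02, near 0 on both arrays, but a second, dimmer probe gave 0.15 and 0.64. The probes thus differed in the treatment comparison, and the value of Bub1 there rests on which of them is read. Ttk, the kinase Mps1, was not well above background in any RNA.

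All 5 kinesins had positive ratios, spread over a wide range. Kif20a, a kinesin of the central spindle, had net intensities of 1133 and 372 on the first array and 2119 and 372 on the second. Its log2 ratios were 0.56 and 1.46 (limma adjusted p = 0.193), and its second probe gave 0.46 and 1.38. The chromosome-arm kinesin Kif4 gave 0.20 and 0.87 (limma adjusted p = 0.282), and the cytokinesis kinesin Kif23 gave 0.13 and 0.62. Kif11 (Eg5), which pushes spindle poles apart, gave 0.10 and 0.42 (limma adjusted p = 0.334). It was not well above background in either deleted RNA. It thus passed the filter only through the Cy5 RNAs, where its signal was higher, and its other probes were too dim to test. Kif2c (MCAK), a microtubule depolymerase, gave 0.09 and 0.10 and was the dimmest member tested, with net intensities from 14.7 to 38.6.

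Of the 6 centromere and kinetochore genes tested, 5 were higher on both arrays. Cenpe, a kinetochore motor (chr3:134936387-134936446, mm9), read 866 and 223 on the first array and 1195 and 218 on the second. The log2 ratios were 0.80 and 1.36 (SD 0.40), with a mean of 1.08 ± 0.16 (moderated SE, n = 2) and a limma adjusted p of 0.132. It is the member that the study lists among cell polarity genes sorted on these arrays, so its height is not independent of that list. The other Cenpe probes were too dim to test. Cenpf gave 0.47 and 1.11 (limma adjusted p = 0.187). The parts of the Ndc80 complex, which holds microtubules at the kinetochore, had larger ratios in the treatment comparison, as did most members. Ndc80 gave 0.13 and 0.89, Nuf2 gave 0.08 and 1.07, and Spc25 gave -0.01 and 0.74. With negative control spots taken as background, the genotype ratios were 0.25 for Ndc80, 0.17 for Nuf2 and -0.003 for Spc25. Spc25 read 117 net in both deleted RNAs, 218 in wild type and 420 in vehicle-treated RNA, values from before dye correction. Cenpk gave 0.05 and 0.54. Cenpa, the centromeric histone, was well above background in 2 of the 4 RNAs and was not tested.

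All 3 spindle assembly and midzone genes tested were higher on both arrays. Tpx2, an activator of Aurora A, gave 0.35 and 0.77 (limma adjusted p = 0.189). Prc1, which bundles midzone microtubules, gave 0.19 and 1.14, from net intensities of 529 and 231 against 1035 and 222. Nusap1, another microtubule-binding protein, gave 0.18 and 1.04. Hmmr was well above background in 2 RNAs, those of the treatment comparison, and was not tested. Of the cytokinesis genes, Anln (anillin, of the contractile ring) gave 0.18 and 0.37 (limma adjusted p = 0.251), Racgap1 gave 0.12 and 0.70, and Ect2 gave 0.09 and 0.44. Mki67, which encodes the proliferation marker Ki-67 and coats mitotic chromosomes, read 509 and 145 on the first array and 821 and 141 on the second. It gave 0.61 and 1.38 (limma adjusted p = 0.177), and its second probe 0.55 and 1.16. Top2a, the topoisomerase that untangles sister chromatids, gave 0.11 and 0.57.

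There were 20 members with more than 1 probe, and 15 further probes of 14 members were bright enough to test. Of these, 14 were higher on both arrays and 1, a dim Cenpk probe, was at -0.01 in the genotype comparison. All 15 had the larger ratio in the treatment comparison, with medians of 0.13 and 0.47.

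**Figure D2:**
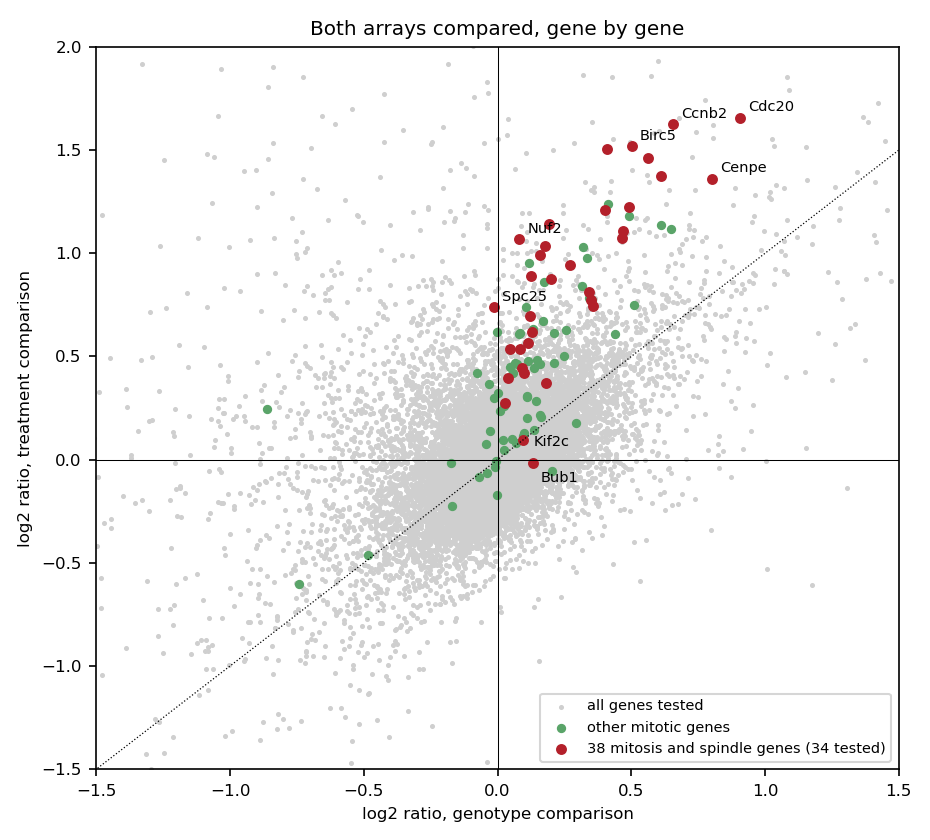
Log2 ratio in the genotype (x axis) against the treatment comparison (y axis), 1 point a gene: mitosis and spindle genes in red, other mitotic genes in green, all genes tested in grey (points beyond the axes are not drawn); the dotted line marks equal ratios. The red points lie right of 0 with few exceptions and above the line for 33 of 34 genes.

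The ratio was larger in the treatment than in the genotype comparison for 33 of the 34 members, Bub1 being the exception, whereas 51.4% of all genes had the larger ratio there. The difference, treatment minus genotype, had a median of 0.62 and ranged from -0.15 for Bub1 to 1.096 for Ccna2. With the arrays scaled to 1 spread, the median difference was 0.27 and 30 members had the larger ratio in the treatment comparison. With 1 array a comparison, this difference has no test. Levels within each RNA were set on a common scale (log2 intensity after dye correction and quantile normalisation of average intensities between arrays), which allows 1 gene to be compared across the 4 RNAs. Vehicle-treated floxed spheres were above tamoxifen-treated wild type spheres for 33 of 34 members, by a median log2 difference of 0.56 (0.35 with arrays scaled to 1 spread). The corresponding median over all genes was -0.01. Between the 2 deleted RNAs the members differed by a median of -0.09, treatment minus genotype comparison, and the sign of this small difference turned to 0.07 when the arrays were scaled to 1 spread. Wild type and vehicle-treated RNAs differed both in the floxed and Cre alleles and in tamoxifen, which cannot be told apart here.

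**Figure D3:**
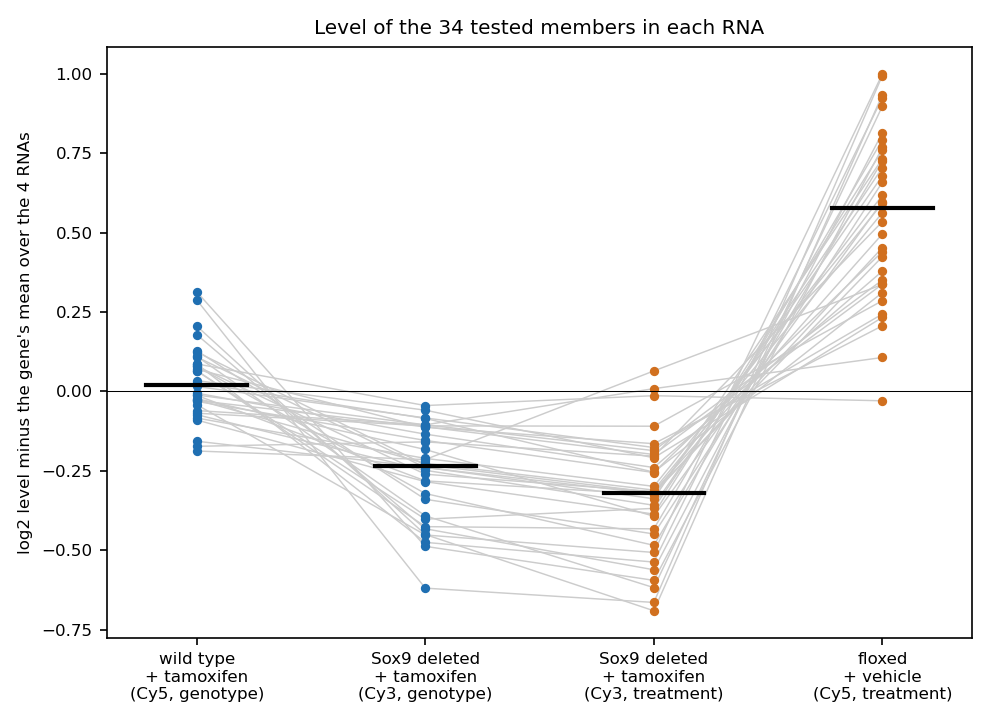
Log2 level of the 34 tested genes in each of the 4 RNAs (x axis), minus each gene's mean over the 4 (y axis); grey lines join 1 gene, and black bars are medians. Medians were 0.02 in wild type, -0.23 and -0.32 in the deleted RNAs and 0.58 in vehicle-treated spheres.

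Brightness bore on these sizes. The background correction used here placed the Cy5 background of the genotype comparison at -118 intensity units, and that of the treatment comparison at -9.002, so that far more was added to dim Cy5 spots on the first array and their ratios were drawn towards 0. Taking each channel's negative control spots as background instead, the members' medians were 0.34 and 0.88, and 33 were higher on both arrays. With the authors' own values the medians were 0.36 and 0.98, and with the scanner software's signals 0.61 and 1.37. The software's signals also carry another dye correction, and that of the authors' values is not given. The genotype median moved by over 1.5 times in each of these settings and kept its direction. The 12 members with a mean brightness of at least 300 were less affected: their medians were 0.50 and 1.37 here, 0.61 and 1.40 with negative control background, 0.60 and 1.47 with the authors' values and 0.70 and 1.504 with the software's signals. In each of these 4 settings all 12 had the larger ratio in the treatment comparison. Under centring on the array median without dye correction by intensity, all genes shifted by a median of 0.42 in the treatment comparison and the members' median there was 1.24.

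**Figure D4:**
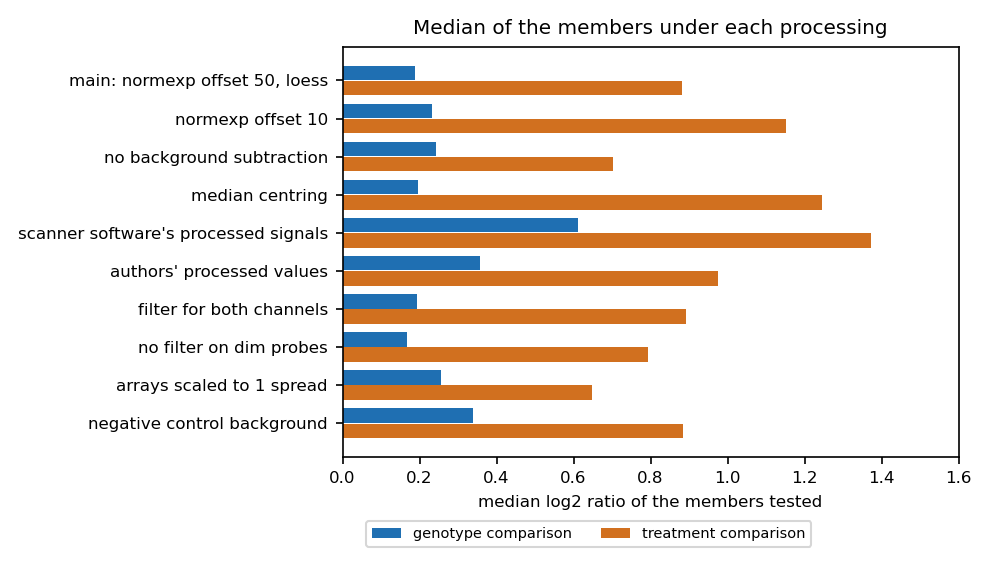
Median log2 ratio of the tested members (x axis, bars from 0) in the genotype and treatment comparison under each processing (y axis). The genotype median ran from 0.17 to 0.61 and the treatment median from 0.65 to 1.37.

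Other mitotic genes, a list of 79 of which 72 were on the array and 64 were tested, showed smaller ratios of the same sign. Their medians were 0.11 and 0.39, 47 were higher and 9 lower on both arrays, and at an unadjusted limma p under 0.05 there were 18 higher and 2 lower. Cdk1, the kinase that mitotic cyclins activate, gave 0.11 and 0.74 (limma adjusted p = 0.332). The highest mean belonged to Hmgb2, a chromatin protein, at 0.65 and 1.12 (limma adjusted p = 0.138), but its dimmer probe gave 0.01 and 0.42. Cdca2 was lowest on its brightest probe at -0.74 and -0.60 (limma adjusted p = 0.107), but its 2 other probes were positive, at 0.22 and 0.70 and at 0.25 and 0.60. Zwint, a kinetochore protein named here after its values were seen, was lower on all 3 of its probes, at -0.48 and -0.46 on the brightest (limma adjusted p = 0.136). A group of condensin and cohesin genes that also held Hmgb2 and Cdca2 had the highest medians in this list. These were 0.26 and 0.63 over 11 genes, of which 10 were higher on both arrays and 1, Cdca2 on its brightest probe, was lower.

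DNA replication genes, which act in the S phase before mitosis, had medians of 0.08 and 0.29 over 44 genes. Of these 32 were higher and 4 lower on both arrays, and 13 were higher at an unadjusted limma p under 0.05. Regulators of the cell cycle did not share the pattern as a list: over 32 genes the medians were -0.04 and 0.12, with 9 higher and 7 lower on both arrays. Foxm1, a factor that drives late cell cycle genes, gave 0.15 and 0.49 (limma adjusted p = 0.286), and Mybl2 (B-Myb), which joins MuvB, gave 0.04 and 0.29 (limma adjusted p = 0.439). Foxm1 was the highest of 9 activators of G2/M transcription, of which 4 were higher and 2 lower on both arrays (medians 0.04 and 0.15). Cdkn1a, the inhibitor p21, was lower on both arrays, at -0.65 and -0.96 (limma adjusted p = 0.118). It was the lowest in a group of 7 genes, p53 and inhibitors, with medians of -0.15 and 0.02. Of these 7, 2 were lower and 0 higher on both arrays, and 4 were lower in the genotype but higher in the treatment comparison.

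**Figure D5:**
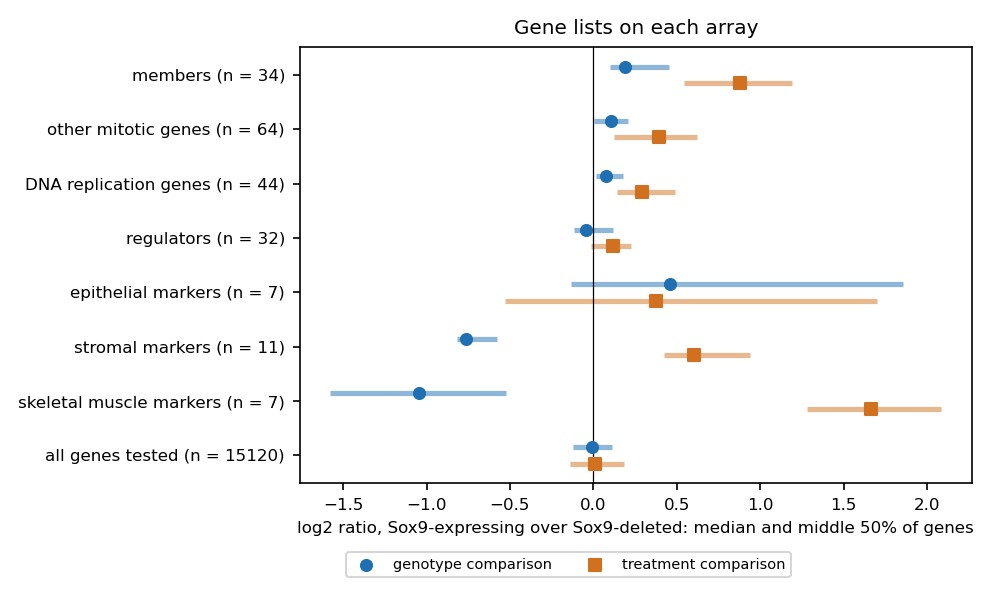
Median log2 ratio (symbols) and the middle 50% of genes (bars) of each gene list (y axis, n genes tested) in the genotype and treatment comparison (x axis). Mitosis and spindle genes were right of 0 in both; stromal and skeletal muscle markers were left of 0 in the genotype and right of it in the treatment comparison.

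Markers of other cells moved between the RNAs as well. All 7 epithelial markers were well above background in every RNA. Their summed net intensity was 574700 in wild type and 503200 in vehicle-treated RNA (Cy5), and 142900 and 169000 in the deleted RNAs (Cy3). All sums here precede dye correction and normalisation between arrays. A Cy5 sum thus cannot be set against a Cy3 sum to give a direction. By gene, after dye correction, the epithelial markers were mixed, with 4 higher and 2 lower on both arrays and medians of 0.46 and 0.37. Cdh1 (-0.31 and -0.32) and the luminal keratin Krt18 (-0.28 and -1.01) were lower on both arrays, and Krt8 was at 0.01 and -0.74, genes named here after their values were seen. All 11 stromal markers were well above background in every RNA. Their summed net intensity was 137800 in vehicle-treated and 51160 in wild type RNA (Cy5), and 43310 and 39090 in the deleted RNAs (Cy3). Of the 11, 10 had a negative ratio in the genotype and a positive one in the treatment comparison (medians -0.77 and 0.60). Skeletal muscle markers summed to 13730 in vehicle-treated and 1716 in wild type RNA (Cy5), and to 2716 and 1914 in the deleted RNAs (Cy3). Their median ratios were -1.05 and 1.67 over 7 tested. Ckm, Tnnt3, Myl1 and Myh4 were not well above background in wild type, and Ckm also not in the deleted RNA of the treatment comparison. Of 8 immune markers 4 or 5 were well above background in an RNA, with sums from 2268 to 4907, and Ptprc, Cd3e and Itgam in none. Of 5 endothelial markers 3 were in each, with sums from 639 to 1933, and Pecam1 and Tek in none. Set against wild type, the other Cy5 RNA, the vehicle-treated RNA was thus higher in the stromal and muscle sums and in 33 of 34 mitosis genes. In the genotype comparison the stromal markers were lower where Sox9 was kept, while the mitosis genes were higher. The part of these cells in the members' ratios was not tested.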

How the data were processed

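RNA of prostaspheres was labelled and hybridised to 2 two-colour Agilent whole mouse genome arrays. Per the file headers, spots were read by Feature Extraction 10.5.1.1, and the deposited scanner files hold each channel's intensity for 45018 spots, the software's processed intensity and a log10 ratio, annotated on mm9. The authors' table holds 1 processed log2 value per spot and array; its medians are -0.01 and -0.003, its slope on the scanner's log10 ratio is 3.12 and 3.14 (r of 0.983 and 0.987, where processed signals are at least 500), and its normalisation is not given in the sources used here beyond the name of limma in the submitters' processing notes. Red over green is Cy5 over Cy3, as the labels give the dyes.

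Mean intensities were background-corrected by normexp (offset 50) on local background medians and normalised by loess within each array (limma 3.58.1, R 4.3.3). Control spots (1639) and outlier flags (126 and 130 spots) were left out after background correction, spots of 1 probe were averaged, and no spot was saturated. Tested were the 22731 of 41174 probes that the software called well above background in Cy5 on each array, or in Cy3 on each, with lmFit and eBayes against 0 (two-sided, Benjamini-Hochberg over all probes tested; prior degrees of freedom 2.80). Each array entered the fit as 1 replicate, although the 2 comparisons differ. Levels used Aquantile. The fit was run on simulated ratios with the same effect on both arrays and no dye effect. That run cannot test the p-values of these arrays. Normexp estimated background means of -118 and -36.5 (Cy5, Cy3) in the genotype and -9.00 and 1.74 in the treatment comparison, while negative control spots lay at net medians of 8.04, 7.75, 3.00 and 7.29. Arrays have no read depth, and their number limits the precision.

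The 38 members, the other lists and their alternatives were chosen with earlier results of these data known. Named were all members, with full values for those highest and lowest in a role, at an unadjusted p under 0.05, or 2-fold on an array; and Foxm1, Mybl2, Cdkn1a, Cdk1, the extremes of other mitotic genes, Sox9, Krt5 and Krt14. Alternatives varied background, normalisation, filter, probe choice and arrays used; the negative control background and the brightness limit of 300 were added after the data were seen. The methods' t-test was run as an alternative. Of the 79 other mitotic genes 7 were not found by name.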

Additional observations from a re-analysis of the deposited data

Results flagged for a closer look

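Some values had opposite signs in the genotype and treatment comparison, each a single array; in every case the difference was not tested. Bub1 was at 0.13 and -0.016, both close to 0, on its brightest probe, and Spc25 at -0.014 and 0.74. Pttg1, the anaphase inhibitor securin, chosen here after its values were seen, was at -0.86 and 0.25. Stromal markers had medians of -0.77 and 0.60, and skeletal muscle markers of -1.05 and 1.67.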

How the results depend on the processing

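Of 305 values of the 34 tested members under 9 other settings with a test, 293 kept their direction and their side of an adjusted p of 0.05, and 12 passed that threshold, all under median centring, which left the shift of all genes in place. Of 102 values under 3 settings with no test (probes averaged, or an array left out), 100 kept their direction and 2 changed sign: Bub1 was -0.016 without the genotype and 0.131 without the treatment array, and Spc25 was 0.738 and -0.014. Outside the members, Cdca2 turned to 0.072 when its tested probes were averaged.

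Some counts moved by over 1.5 times, and the cause was not tested. Under median centring 12 members had a limma adjusted p under 0.05, with 428 genes in all (2.83%), and 22 were 2-fold higher in the treatment comparison (7.38% of all genes). With the software's signals 24 were (3.93%), and 6 were on both arrays (1.40%). With arrays scaled to 1 spread these counts were 7 (0.774%) and 2 (0.278%). At an unadjusted p under 0.05 there were 26 members with the authors' values (20.5% of all genes) and 27 with negative control background (20.8%), and 1 member was 2-fold higher on both arrays under each (0.569% and 0.496%). The methods' t-test, paired over 2 arrays, gave 1 member at an unadjusted p under 0.05 (8.80% of all genes) and 0 after adjustment. Leaving out an array leaves a value with no test: the median was 0.88 without the genotype and 0.19 without the treatment array, 33 members were higher in each, and 14 and 0 were 2-fold. The median difference between the 2 deleted RNAs was -0.09 and turned to 0.069 with arrays scaled to 1 spread. Among all genes, median centring raised the share higher among those with an unadjusted p under 0.05 from 53.8% to 93.9%. Signal over background limits the dim members: 22 of the 34 had a brightness under 300, with medians of 0.12 and 0.66, against 0.50 and 1.37 for the 12 brighter.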
